A study of Mus musculus with 12 samples.

Results

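Glutathione synthesis and cystine import were followed through 8 genes, *Gclc*, *Gclm*, *Gss*, *Gsr*, *Slc7a11*, *Ggt1*, *Ggt5* and *Chac2*, in the livers of autophagy-deficient mice. The members were the rows of the gene count table whose symbol equals 1 of these names, and all 8 were found among the 24411 genes listed. Poly(A) RNA of whole liver had been sequenced from 3 mice of each of 3 genotypes at 3 months of age, to ask how far the response to loss of *Atg7* depends on the binding of KEAP1 to p62. All mice carried *Atg7*flox/flox on a C57BL/6 background. The cont. mice carried nothing else, the *Atg7*-KO mice also carried Alb-*Cre*, and the *Atg7*-KO;*p62*T352A mice, *Atg7*-KO;TA in what follows, carried Alb-*Cre* and 2 copies of p62T352A. Alb-*Cre* is driven by the albumin promoter and deletes the floxed gene in hepatocytes. Which other liver cells keep *Atg7* was not examined here. The T352A exchange was introduced into the endogenous p62 gene, *Sqstm1*, by prime editing of embryonic stem cells, and it was chosen because it removes the retention of KEAP1 by p62. Labels exist for 3 mice with p62T352A and without Alb-*Cre*, and these were not analysed here, so the exchange could not be examined in livers with intact *Atg7*.

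Glutathione is a tripeptide of glutamate, cysteine and glycine, the main soluble thiol of the hepatocyte and the co-substrate for conjugation of xenobiotics. Glutamate-cysteine ligase, a dimer of the catalytic subunit GCLC and the modifier subunit GCLM, catalyzes the rate-limiting step, and glutathione synthetase (GSS) adds glycine. Glutathione reductase (GSR) returns the oxidized disulfide to the thiol. The light chain xCT, encoded by *Slc7a11*, imports cystine in exchange for glutamate together with the heavy chain encoded by *Slc3a2*. Gamma-glutamyltransferases (GGT1 and GGT5) cleave extracellular glutathione, and CHAC2 degrades it in the cytosol. Several of these genes are known targets of NRF2, which KEAP1 directs to degradation and which binds antioxidant response elements. *Slc7a11* is also a known target of ATF4.

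The starts of member genes were read from the RefSeq promoter windows of GRCm38.p6, which run from 250 bases before to 50 bases after a start. Windows were given for 5 members (8 windows in all, 4 of them for *Ggt1*), and *Gclc*, *Gsr* and *Ggt5* had none. Searched on both strands were the core of the antioxidant response element, TGACNNNGC, and the core of the element bound by ATF4 with C/EBP proteins, TGATGNAA. The 4 member windows with a match before the start are given here by their 250 upstream bases, written 5′ to 3′ on the strand of the gene with the matches in capitals. They belong to 3 genes that were higher in *Atg7*-KO mice.
*Slc7a11*, chr3:50443614-50443863, minus strand: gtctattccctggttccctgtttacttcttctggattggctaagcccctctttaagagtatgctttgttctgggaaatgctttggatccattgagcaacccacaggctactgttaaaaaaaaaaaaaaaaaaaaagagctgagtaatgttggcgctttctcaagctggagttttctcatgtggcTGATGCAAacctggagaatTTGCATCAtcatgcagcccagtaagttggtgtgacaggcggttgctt
*Gclm*, chr3:122245307-122245556, plus strand: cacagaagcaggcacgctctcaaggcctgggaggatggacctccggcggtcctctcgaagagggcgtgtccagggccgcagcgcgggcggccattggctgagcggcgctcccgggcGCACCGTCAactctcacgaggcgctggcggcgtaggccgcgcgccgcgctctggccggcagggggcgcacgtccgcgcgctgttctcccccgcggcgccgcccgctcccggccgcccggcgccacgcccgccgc
*Ggt1*, promoter 2, chr10:75568412-75568661, plus strand: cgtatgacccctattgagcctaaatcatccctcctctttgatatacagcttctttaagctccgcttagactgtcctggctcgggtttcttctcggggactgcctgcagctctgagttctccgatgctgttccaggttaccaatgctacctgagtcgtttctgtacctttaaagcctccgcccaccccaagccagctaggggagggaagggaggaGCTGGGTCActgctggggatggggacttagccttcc
*Ggt1*, promoter 3, chr10:75571310-75571559, plus strand: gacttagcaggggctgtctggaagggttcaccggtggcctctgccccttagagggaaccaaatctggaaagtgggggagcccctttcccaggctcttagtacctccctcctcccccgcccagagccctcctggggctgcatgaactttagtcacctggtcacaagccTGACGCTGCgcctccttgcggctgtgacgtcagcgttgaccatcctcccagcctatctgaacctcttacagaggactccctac
In the *Slc7a11* window, TGATGNAA occurred at 66 to 59 bases before the start and again on the opposite strand at 47 to 40 bases. It was found in 1 of the 8 member windows and in 3.97% of all 32851 windows. The antioxidant response element core lay 134 to 126 bases before the start of *Gclm*, on the opposite strand. It lay 36 to 28 bases before *Ggt1* promoter 2, also on the opposite strand, and 83 to 75 bases before *Ggt1* promoter 3. With a further match after the start of *Ggt1* promoter 1, it was found in 4 of the 8 member windows and in 12.4% of all windows. All of these member windows but that of *Gclm* belong to 1 gene, *Ggt1*, so they are not independent of each other. The *Slc7a11* window held no antioxidant response element core. The windows of *Gss*, which was also higher in *Atg7*-KO mice, and of *Chac2* held neither string.

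Sequencing depth was 9671080 to 23285132 counts in cont. mice, 16157269 to 18480553 in *Atg7*-KO mice and 16133620 to 17357172 in *Atg7*-KO;TA mice. The deepest library was cont. mouse 1, which gave the highest cont. value of all members with more than 1 count in that group apart from *Ggt5*. The mice numbered 1 had 7 to 28 counts of *Xist*, the RNA that silences an X chromosome in females, against 8578 to 18335 in the mice numbered 2 and 3. By this RNA, the mice numbered 1 had the level of males and those numbered 2 and 3 the level of females, in every genotype. Results without cont. mouse 1 or without the mice numbered 1 thus also differ in sex by this RNA. *Atg7* stood at 46.4, 44.2 and 55.4 normalized CPM (counts divided by the scaled library size, the level used throughout) in the cont. mice, at 10.1, 9.57 and 12.0 in *Atg7*-KO mice and at 29.7, 27.4 and 29.5 in *Atg7*-KO;TA mice. The 3 genotypes did not overlap. *Atg7* fell in *Atg7*-KO mice relative to cont. (log2 fold change -2.20 ± 0.17 SE, adjusted p = 2.55e-05) and higher in *Atg7*-KO;TA than in *Atg7*-KO mice (1.45 ± 0.17, adjusted p = 0.000164). Against cont. mice the *Atg7*-KO;TA mice were lower (-0.75 ± 0.16, adjusted p = 0.0206), a call lost without any 1 of the 3 *Atg7*-KO;TA mice (adjusted p = 0.0524, 0.0544 and 0.07). The counts cover the whole gene, and the exons removed by the floxed allele are not given in the sources used here. The residual *Atg7* RNA thus differed between the 2 groups with Alb-*Cre*, and its part in the differences between them was not tested. *Sqstm1* rose in *Atg7*-KO mice (1.24 ± 0.22, adjusted p = 0.00189). It was lower in *Atg7*-KO;TA than in *Atg7*-KO mice (-0.75 ± 0.22, adjusted p = 0.0174), a call that was lost without *Atg7*-KO mouse 1 or 3 or without *Atg7*-KO;TA mouse 1 or 3 (adjusted p = 0.0511, 0.0605, 0.0634 and 0.0619).

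With loss of *Atg7*, 6 of the 8 genes rose and 1 fell. A gene was called at an FDR under 0.05 over all 13922 genes tested and a fold change over 1.5. The background was wide, since loss of *Atg7* was accompanied by a higher level of 21.6% and a lower level of 22.1% of all tested genes, 43.7% in either direction. The median log2 fold change of the members was 1.99, beside -0.032 over all tested genes. The members were chosen with earlier results of these data known, so the contrast with all tested genes is a description and not a test. With the p62 exchange added to loss of *Atg7*, 6 members were called lower, where 26.2% of tested genes were lower, 24.7% higher and 51% either. The members' median there was -1.43, against 0.0021 over all tested genes. Between *Atg7*-KO;TA and cont. mice, 0 of the 8 were called by edgeR, where 6.25% of tested genes were higher, 5.34% lower and 11.6% either. At an unadjusted p under 0.05, 2 members (*Gss* and *Gsr*) passed in that comparison, and DESeq2 called 1 (*Gss*). Each pair of these comparisons shares a group of mice, so they are not independent of each other. All 8 members passed the filter on low counts, but *Slc7a11* and *Ggt1* passed through the *Atg7*-KO mice alone, since none of the other 6 mice reached the limit of 0.609 CPM for either gene, here computed on library totals before TMM scaling.

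**Figure D1:**
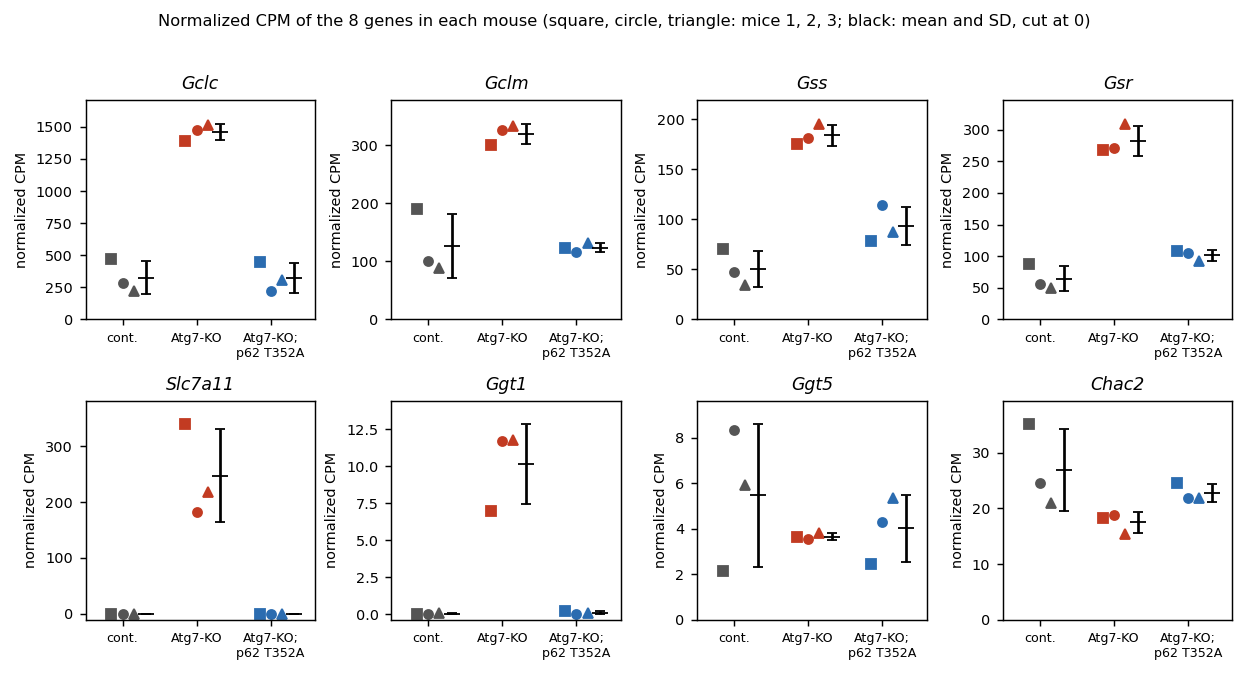
Normalized CPM (vertical axes, linear) of each of the 8 genes in the 3 genotypes, with 1 symbol per mouse and the mean and SD of 3 mice in black. *Gclc*, *Gclm*, *Gss*, *Gsr*, *Slc7a11* and *Ggt1* were highest in the 3 *Atg7*-KO mice, whereas *Ggt5* overlapped between genotypes and *Chac2* was lowest in *Atg7*-KO mice.

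The catalytic subunit gene *Gclc* (chromosome 9, 77754535 to 77794485, plus strand, in GENCODE vM21 on GRCm38, as for the genes that follow) stood at 469, 283 and 218 CPM in cont. mice 1, 2 and 3. It stood at 1388, 1478 and 1514 in *Atg7*-KO mice and at 449, 218 and 305 in *Atg7*-KO;TA mice. The *Atg7*-KO mice lay far above all others, and the other 2 genotypes covered the same range. *Gclc* rose 4.51-fold with loss of *Atg7* (log2 2.17 ± 0.34, adjusted p = 0.000915) and fell by 2.17 on the log2 scale with the p62 exchange (± 0.34, adjusted p = 0.000736). Against cont. mice the log2 difference in *Atg7*-KO;TA mice was 0.0024 ± 0.33 (adjusted p = 0.998), and its sign turned under 7 of 17 alternatives, which ranged from -0.31 to 0.37.

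The modifier subunit gene *Gclm* (chromosome 3, 122245557 to 122270732, plus strand) was also highest in *Atg7*-KO mice. Its levels were 190, 101 and 88.4 CPM in cont. mice, 299.7, 326 and 333 in *Atg7*-KO mice and 123, 116 and 131 in *Atg7*-KO;TA mice. Only the *Atg7*-KO mice stood apart, and the *Atg7*-KO;TA values lay within the range of the cont. mice. *Gclm* rose 2.53-fold in *Atg7*-KO mice (log2 1.34 ± 0.27, adjusted p = 0.00362) and was lower with the p62 exchange (log2 -1.37 ± 0.27, adjusted p = 0.00255). The log2 difference between *Atg7*-KO;TA and cont. mice was -0.036 ± 0.27 (adjusted p = 0.949). Without cont. mouse 1 it was 0.38. *Gclm* shares 3.50% of its 75-base transcript stretches with other genes, most with *Ppia*.

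Because the subunits act as a dimer, the balance of their RNAs was measured within each mouse as the *Gclc* CPM divided by the *Gclm* CPM. This ratio is not scaled for gene length, which cancels between mice, and subunit protein was not examined here. The ratio was 2.47, 2.81 and 2.47 in cont. mice and 4.63, 4.54 and 4.55 in *Atg7*-KO mice. In *Atg7*-KO;TA mice it was 3.65, 1.88 and 2.33. The *Atg7*-KO mice did not overlap with the others and differed least among themselves, while *Atg7*-KO;TA mouse 1 lay between the other mice of its genotype and the *Atg7*-KO mice. The geometric means were 2.58, 4.57 and 2.52. The log2 ratio in *Atg7*-KO mice exceeded that in cont. mice by 0.83 and differed by -0.86 between *Atg7*-KO;TA and *Atg7*-KO mice. Each difference reached p = 0.1 in a two-sided exact permutation test, the smallest value that 3 mice against 3 allow, so the design could not reach the threshold. Between *Atg7*-KO;TA and cont. mice it differed by -0.034 (exact permutation p = 0.8).

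**Figure D2:**
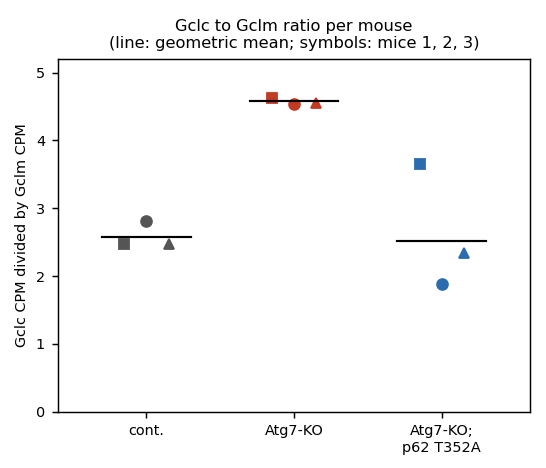
*Gclc* CPM divided by *Gclm* CPM (vertical axis, linear from 0) in each mouse, with a line at the geometric mean of each genotype. The *Atg7*-KO mice lie between 4.54 and 4.63, above the range of 2.47 to 2.81 in cont. mice and of 1.88 to 3.65 in *Atg7*-KO;TA mice.

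The second enzyme of synthesis, encoded by *Gss* (chromosome 2, 155563181 to 155592810, minus strand), rose in *Atg7*-KO mice and lay between the other genotypes in *Atg7*-KO;TA mice. *Gss* stood at 70.1, 47.5 and 34.4 CPM in cont. mice, at 176, 181 and 196 in *Atg7*-KO mice and at 78.4, 115 and 87.0 in *Atg7*-KO;TA mice. The 3 genotypes did not overlap, and the *Atg7*-KO;TA mice lay between the other 2 groups. Relative to cont., *Gss* was 3.63-fold higher in *Atg7*-KO mice (log2 1.86 ± 0.27, adjusted p = 0.000567). It was lower in *Atg7*-KO;TA than in *Atg7*-KO mice (log2 -0.98 ± 0.26, adjusted p = 0.0107). The difference of 0.88 ± 0.26 between *Atg7*-KO;TA and cont. mice missed the threshold in edgeR (adjusted p = 0.0572). It passed in DESeq2 (0.82, adjusted p = 0.0362), with at least 10 counts in every mouse (0.89, adjusted p = 0.0465), without the mice numbered 1 (1.30, adjusted p = 0.00971) and without cont. mouse 1 (1.19, adjusted p = 0.00429). *Gss* overlaps *Acss2*, *Gssos1* and *Gssos2* on the opposite strand and shares 7.77% of its stretches with other genes, and the strand setting of the counting is not given in the sources used here, so reads of these genes may not be told apart.

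*Gsr* (chromosome 8, 33652523 to 33698163, plus strand), the recycling enzyme, showed a pattern close to that of *Gss*. Its levels were 87.9, 55.8 and 49.9 CPM in cont. mice, 268, 271 and 309.6 in *Atg7*-KO mice and 109, 104 and 91.7 in *Atg7*-KO;TA mice. Again the genotypes did not overlap, with *Atg7*-KO;TA mice in the middle. *Gsr* rose 4.38-fold in *Atg7*-KO mice (log2 2.13 ± 0.23, adjusted p = 0.000144) and was lower with the p62 exchange (log2 -1.48 ± 0.23, adjusted p = 0.000678). Its difference between *Atg7*-KO;TA and cont. mice was 0.65 ± 0.23 (adjusted p = 0.0905), which passed the threshold without cont. mouse 1 (0.94, adjusted p = 0.00333) and without the mice numbered 1 (0.89, adjusted p = 0.0154).

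The cystine importer gene *Slc7a11* (chromosome 3, 49892526 to 50443614, minus strand), whose promoter is printed above, went from near absence to at least 182 CPM. It had 11, 3 and 2 counts in cont. mice, 7033, 4419 and 5117 in *Atg7*-KO mice and 3, 0 and 6 in *Atg7*-KO;TA mice. In CPM the *Atg7*-KO mice stood at 340.1, 182 and 218, and no other mouse exceeded 0.630. Summed over mice and scaled by library size, the level in *Atg7*-KO was 562 times that in cont. mice (95% interval 346 to 983) and 1173 times that in *Atg7*-KO;TA mice (618 to 2565). These exact binomial intervals cover counting error only. The edgeR tests gave adjusted p = 1.40e-05 and 1.91e-05, and the fitted changes ranked 10 from the highest and 8 from the lowest of 13922 genes. *Slc7a11* passed the filter on low counts through the *Atg7*-KO mice alone, so these values describe the difference and are no separate support for it. Between *Atg7*-KO;TA and cont. mice the ratio was 0.479 (0.187 to 1.15), and 9 against 16 counts did not allow a difference to be detected (adjusted p = 0.442). *Slc7a11* overlaps the antisense gene *Gm37854* among others, and 0.611% of its stretches are shared.

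The heavy chain gene *Slc3a2*, the partner of *Slc7a11*, was already present in cont. mice at 42.8, 41.6 and 43.7 CPM. It reached 98.6, 81.8 and 96.5 in *Atg7*-KO mice and 44.4, 73.7 and 55.2 in *Atg7*-KO;TA mice. *Slc3a2* rose by 1.11 ± 0.20 on the log2 scale in *Atg7*-KO mice (adjusted p = 0.00192). It was lower in *Atg7*-KO;TA than in *Atg7*-KO mice (-0.68 ± 0.20, adjusted p = 0.017). Its difference between *Atg7*-KO;TA and cont. mice was 0.44 ± 0.20 (adjusted p = 0.186).

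*Ggt1* (chromosome 10, 75561604 to 75586200, plus strand), which encodes a cell-surface enzyme known from bile duct epithelium and kidney, appeared in *Atg7*-KO mice at a modest level. It had 0, 0 and 1 counts in cont. mice, 145, 285 and 276 in *Atg7*-KO mice and 3, 0 and 1 in *Atg7*-KO;TA mice. The *Atg7*-KO levels were 7.01, 11.7 and 11.8 CPM, with all other mice at 0.214 or less. The level in *Atg7*-KO was 383 times that in cont. mice, with a counting interval of 68.5 to 15145 that is wide because 1 count was seen in cont. mice, and 112 times that in *Atg7*-KO;TA mice (43.7 to 414). The edgeR tests gave adjusted p = 6.03e-05 and 7.64e-05, which are likewise a description, since *Ggt1* passed the filter through the *Atg7*-KO mice alone. Between *Atg7*-KO;TA and cont. mice, 4 counts against 1 left the ratio between 0.337 and 168 (adjusted p = 0.507).

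Its neighbour *Ggt5* (chromosome 10, 75589340 to 75617200, plus strand), which encodes a related transferase, did not share this pattern. *Ggt5* stood at 2.12, 8.32 and 5.93 CPM in cont. mice, at 3.63, 3.53 and 3.80 in *Atg7*-KO mice and at 2.43, 4.27 and 5.35 in *Atg7*-KO;TA mice. The genotypes overlapped, and cont. mouse 1 was the lowest of all 9. The log2 difference was -0.56 ± 0.45 in *Atg7*-KO against cont. mice (adjusted p = 0.333), 0.14 ± 0.45 in *Atg7*-KO;TA against *Atg7*-KO mice (adjusted p = 0.808) and -0.42 ± 0.45 in *Atg7*-KO;TA against cont. mice (adjusted p = 0.592). Without cont. mouse 1 the first of these was -0.97 and passed the threshold (adjusted p = 0.0185), as it did without the mice numbered 1 (-0.96, adjusted p = 0.0139).

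*Chac2* (chromosome 11, 30976707 to 30986350, minus strand) was the 1 member called lower in *Atg7*-KO mice. Its levels were 35.1, 24.6 and 21.0 CPM in cont. mice, 18.3, 18.9 and 15.4 in *Atg7*-KO mice and 24.6, 21.8 and 21.9 in *Atg7*-KO;TA mice. The *Atg7*-KO mice lay lowest without overlap, by a margin that was small beside the spread of the cont. mice. *Chac2* was lower by 0.62 on the log2 scale (-0.62 ± 0.21, adjusted p = 0.0332), and this call was lost under 8 of 17 alternatives. These included leaving out cont. mouse 1 (-0.38, adjusted p = 0.0448, under the fold threshold) or *Atg7*-KO mouse 1, 2 or 3 (adjusted p = 0.0777, 0.0705 and 0.127). The differences of 0.38 ± 0.21 between *Atg7*-KO;TA and *Atg7*-KO mice (adjusted p = 0.148) and of -0.24 ± 0.21 between *Atg7*-KO;TA and cont. mice (adjusted p = 0.477) were not called. *Chac2* overlaps *Asb3* on the opposite strand. Its better-known relative *Chac1*, an ATF4 target that degrades glutathione, differed by -0.80 ± 0.55 in *Atg7*-KO against cont. mice (adjusted p = 0.258) and by 0.10 ± 0.54 in *Atg7*-KO;TA against cont. mice (adjusted p = 0.929).

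**Figure D3:**
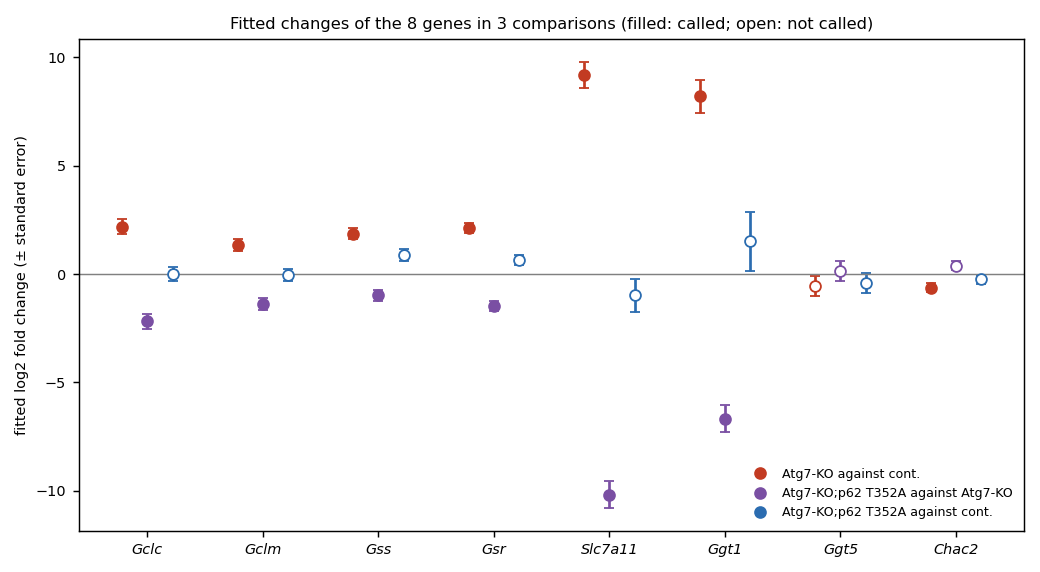
Fitted log2 fold change with its standard error (vertical axis) of the 8 genes in the 3 comparisons, filled where called. *Slc7a11* and *Ggt1* moved by far more than the other members in the first 2 comparisons, and no symbol is filled in *Atg7*-KO;TA against cont. mice.

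To compare levels between genes, CPM were divided by the length of the merged exons in kilobases (RPKM). In cont. mice *Gclc* was the most abundant member at 85.9 ± 34.5 RPKM (SD, n = 3). *Gsr* at 23.4, *Chac2* at 20.5 and *Gclm* at 20.1 RPKM followed with overlapping ranges, above *Gss* at 8.57 and *Ggt5* at 0.922. In *Atg7*-KO mice *Gclc* reached 388 ± 17.3, *Gsr* 103 ± 8.50, *Gclm* 50.8 ± 2.77, *Gss* 31.1 ± 1.76 and *Slc7a11* 17.7 ± 5.96 RPKM. With merged exons of 13922 bases for *Slc7a11* and 1315 for *Chac2*, *Slc7a11* overlapped there with *Chac2* at 13.3. The longest *Slc7a11* transcript has 9223 bases, so its place beside *Chac2* depends on the length chosen. *Ggt1* at 2.98 lay above *Ggt5* at 0.617. In *Atg7*-KO;TA mice *Gclc* (86.0 RPKM) and *Gsr* (36.9) again led, and *Gclm* (19.6), *Chac2* (17.3) and *Gss* (15.8) formed an overlapping middle group. *Gclc* kept the first place in each genotype with merged exons as the length.

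Levels of cell type markers also moved with genotype. Of the 8 hepatocyte markers, 7 fell in *Atg7*-KO mice, with a summed level of 35857 to 38126 CPM against 80877 to 127260, and of 111310 to 127640 in *Atg7*-KO;TA mice. Higher in *Atg7*-KO mice were 5 of 7 cholangiocyte markers, whose sum was 849 to 1046 CPM against 66.9 to 70.1 in cont. and 205 to 289.6 in *Atg7*-KO;TA mice. Also higher in *Atg7*-KO mice were 6 of 8 macrophage markers (1075 to 1141 CPM, against 289 to 386 in cont. and 199 to 379 in *Atg7*-KO;TA mice) and 5 of 7 stellate and fibroblast markers (846 to 995 CPM, against 242 to 294 and 351 to 591). Of 6 endothelial markers, 3 were higher and 1 lower (259 to 269.8 CPM, against 254 to 318 in cont. and 134 to 165 in *Atg7*-KO;TA mice). No marker of these lists was at 0 in all mice of a genotype. In whole liver, a change in the number of cells of a type and a change in RNA per cell cannot be told apart, and the part of these shifts in the members' values was not tested.

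Beyond the members, 51 genes of the glutathione pathway were followed in 5 lists, and 49 of them were tested. In *Atg7*-KO against cont. mice, 13 (26.5%) were higher and 9 (18.4%) lower, with a median log2 fold change of -0.032. The p62 exchange on the *Atg7*-KO background came with 10 higher and 12 lower. Relative to cont., *Atg7*-KO;TA mice had 4 (8.16%) higher and 4 (8.16%) lower. These shares lay near those of all tested genes in each comparison. The counts per list that follow for *Atg7*-KO against cont. mice stand beside 21.6% higher and 22.1% lower among all tested genes. They rest on few genes per list and were not tested as sets.

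The list of cystine, cysteine and glutamate supply held the widest changes, with 5 of 13 tested genes higher and 5 lower in *Atg7*-KO mice. *Slc1a1*, a transporter of glutamate and cysteine, had 2, 1 and 3 counts in cont. mice, 2004, 2473 and 2670 in *Atg7*-KO mice and 404, 79 and 590 in *Atg7*-KO;TA mice. Its scaled level in *Atg7*-KO was 646 times that in cont. mice (95% counting interval 297 to 1761, adjusted p = 6.09e-05). It was also called in *Atg7*-KO;TA against cont. mice, at 152 times (69.7 to 416, adjusted p = 0.00369), although *Atg7*-KO;TA mouse 2 stood at 5.53 CPM and the other 2 at 28.8 and 38.5. *Slc1a4*, a carrier of neutral amino acids, rose by 4.91 ± 0.28 on the log2 scale in *Atg7*-KO mice (adjusted p = 1.16e-05) and by 1.05 ± 0.25 in *Atg7*-KO;TA mice (adjusted p = 0.0289). The latter call was lost under 7 of 17 alternatives. Those that fell most were the glutamate transporter gene *Slc1a2* (-5.55 ± 0.42, adjusted p = 2.50e-05) and *Cbs*, the entry enzyme of transsulfuration (-1.66 ± 0.18, adjusted p = 0.000158). Their levels went from 201 to 4.29 and from 483 to 153 CPM.

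In the list of glutathione and conjugate transport, which holds ABC exporters and mitochondrial carriers, 3 of 10 genes (*Abcc1*, *Abcc3* and *Abcc4*, all exporters) were higher in *Atg7*-KO mice and the other 7 were not called. *Abcc4* stood at 3.90, 3.40 and 5.50 CPM in cont. mice, 229.9, 224 and 232 in *Atg7*-KO mice and 2.36, 2.52 and 4.31 in *Atg7*-KO;TA mice. *Abcc4* rose by 5.75 ± 0.30 on the log2 scale (adjusted p = 7.22e-06), and *Abcc1* by 2.62 ± 0.27 (adjusted p = 9.59e-05). The rise of *Abcc3* was just over the fold limit, at 1.51-fold (log2 0.60 ± 0.20, adjusted p = 0.0358), and was not followed through the alternatives. *Abcc2*, the canalicular exporter, was lower in *Atg7*-KO;TA than in cont. mice (-1.55 ± 0.19, adjusted p = 0.0048) under all 17 alternatives. *Abcc3* was lower there as well (-0.80 ± 0.20, adjusted p = 0.0343), a call that 9 of 17 alternatives did not keep.

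Of the genes for the gamma-glutamyl cycle and glutathione breakdown, 2 of 10 were higher and 1 lower in *Atg7*-KO mice. *Ggct*, which releases oxoproline, was higher in *Atg7*-KO (1.10 ± 0.28, adjusted p = 0.00953) and in *Atg7*-KO;TA mice (1.26 ± 0.28, adjusted p = 0.022), the latter lost under 4 of 17 alternatives. The oxoprolinase gene *Oplah* was lower in both (-0.72 ± 0.19, adjusted p = 0.0119, and -0.67 ± 0.19, adjusted p = 0.049). The first call was lost without *Atg7*-KO mouse 3 (adjusted p = 0.0579) and the second under 10 of 17 alternatives. *Dpep2*, a dipeptidase gene, had 6 counts in cont. and 45 in *Atg7*-KO mice (ratio 4.07, counting interval 1.73 to 11.7, adjusted p = 0.0148), and lost its call without *Atg7*-KO mouse 2 (adjusted p = 0.0579) and without the mice numbered 1 (adjusted p = 0.0528). *Nit1*, a deaminated glutathione amidase gene, was lower in *Atg7*-KO;TA mice (-0.76 ± 0.17, adjusted p = 0.0218), and this call was lost under 6 of 17 alternatives.

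Glutaredoxins and thioredoxin reductases, which pass electrons to protein thiols, were represented by 7 genes, of which 2 were higher and 1 lower in *Atg7*-KO mice. *Txnrd1*, for the cytosolic reductase, rose from 108 ± 25.1 to 440.3 ± 6.44 CPM (log2 2.02 ± 0.21, adjusted p = 0.000107), and *Txnrd2*, for the mitochondrial enzyme, fell from 37.4 ± 7.16 to 14.0 ± 0.285 CPM (log2 -1.41 ± 0.17, adjusted p = 0.000247). *Glrx* was higher by 0.63 ± 0.18 (adjusted p = 0.0182) and lost its call under 5 of 17 alternatives. *Glrx3* was higher in *Atg7*-KO;TA than in cont. mice (0.90 ± 0.23, adjusted p = 0.0344), a call lost under 7 of 17 alternatives.

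Of 9 regulator genes, *Sqstm1* rose in *Atg7*-KO mice, *Mafg* and *Atf4* fell and the other 6 were not called. *Nfe2l2*, which encodes NRF2, stood at 70.9, 205 and 244 CPM in cont. mice, 102, 122 and 121 in *Atg7*-KO mice and 168, 71.1 and 106 in *Atg7*-KO;TA mice. The genotypes overlapped, and cont. mouse 1 was again apart from its group. The log2 difference of *Nfe2l2* was -0.60 ± 0.43 in *Atg7*-KO (adjusted p = 0.283) and -0.59 in *Atg7*-KO;TA mice (adjusted p = 0.404), and without cont. mouse 1 both passed the threshold as lower (-0.97, adjusted p = 0.016, and -0.97, adjusted p = 0.0366). *Keap1* differed by -0.032 ± 0.15 (adjusted p = 0.877) and by 0.31 (adjusted p = 0.219). *Mafg*, for a small Maf partner of NRF2, was lower by a fitted -1.61 ± 0.45 (adjusted p = 0.0163) although cont. mouse 1, at 24.9 CPM, lay within the *Atg7*-KO range. The call of *Mafg* was lost without cont. mouse 3 and without *Atg7*-KO mouse 1 or 3 (adjusted p = 0.057, 0.0548 and 0.0583). *Atf4* was lower by -0.61 ± 0.15 (adjusted p = 0.00815), with a fold change that fell under the threshold in 5 of 17 alternatives, among them those without cont. mouse 1 (-0.56) or *Atg7*-KO mouse 2 (-0.58).

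**Figure D4:**
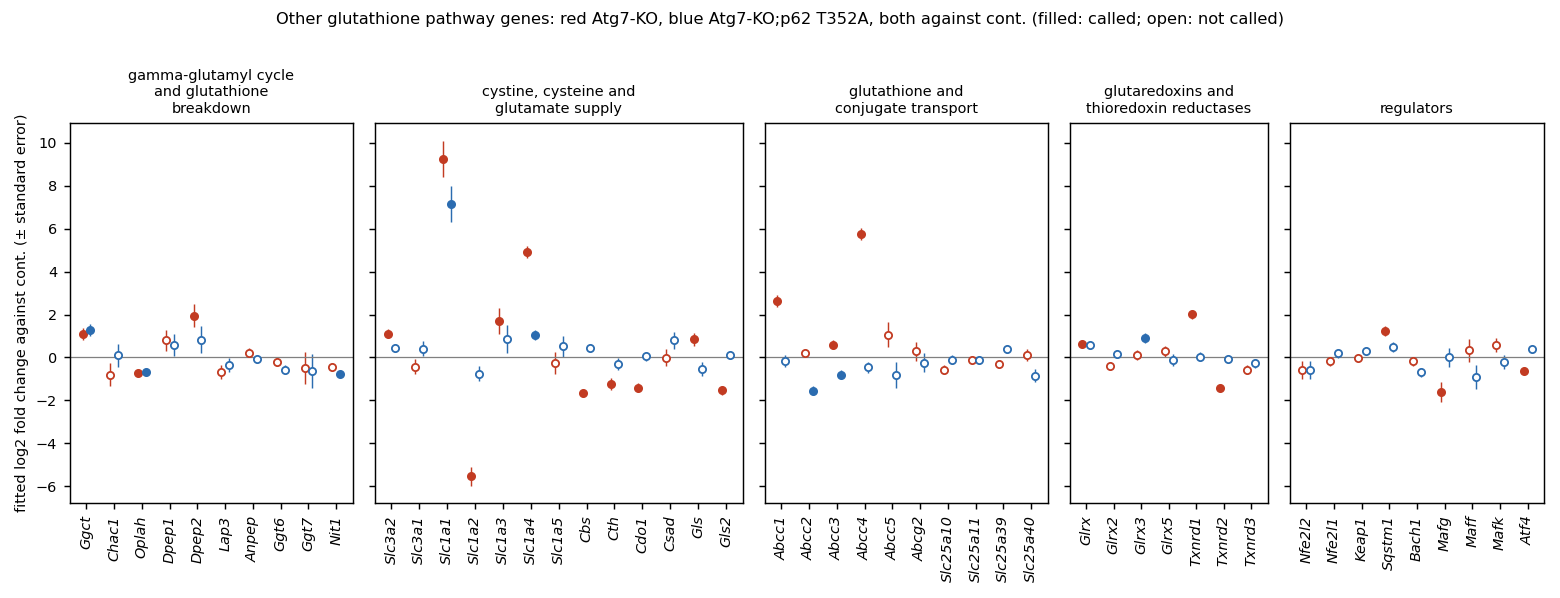
Fitted log2 fold change against cont. mice with its standard error (vertical axis) of the 49 tested genes of the 5 pathway lists, in *Atg7*-KO (red) and *Atg7*-KO;TA mice (blue), filled where called. *Slc1a1*, *Abcc4* and *Slc1a4* show the highest red symbols and *Slc1a2* the lowest, and *Slc1a1* is the highest blue symbol.

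Across the 9 mice, log2 CPM of *Gclc* and *Gclm* had a Pearson r of 0.966, those of *Gss* and *Gsr* one of 0.964 and those of *Slc7a11* and *Ggt1* one of 0.970. *Chac2* ran against the 6 risers, with r between -0.76 and -0.46. The tested genes most like *Gclc* were *Crim1*, *Ugdh* and *Cast* (r = 0.995, 0.992 and 0.992). Most like *Gclm* were *Enpp4*, *Cacul1* and *Slit2* (0.996, 0.994 and 0.992), and most like *Slc7a11* were *Slc25a24*, *Gpx2* and *Rhpn2* (0.994, 0.993 and 0.993). These values describe 9 mice in 3 genotypes and rest largely on the separation of the *Atg7*-KO mice from the other 6.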

How the data were processed

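Livers of cont., *Atg7*-KO and *Atg7*-KO;TA mice were analysed, 3 of each. The authors mapped 75-bp single-end reads to mm10 with STAR and deposited RSEM expected counts per gene, unscaled for library size. The submitters' processing notes also name Trim Galore. Versions, annotation and strand setting are not given in the sources used here. Expected counts were rounded to whole numbers. Labels exist for 3 further mice (p62T352A without Alb-*Cre*), not analysed here. Whether mice shared a litter or batch is not stated.

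Genes were kept by filterByExpr (13922 tested), scaled by TMM and fitted for all 3 genotypes in edgeR's quasi-likelihood model (edgeR 4.0.16, R 4.3.3), with Benjamini-Hochberg adjustment over all tested genes. Calls needed a fold change over 1.5 at an FDR under 0.05. The 17 alternatives for a fold change were DESeq2 1.42.0, its size factors or upper-quartile scaling in edgeR, no low-count filter, a minimum of 10 counts in each mouse, a block on the mouse number, removal of the 20 most counted genes, removal of the mice numbered 1, and omission of each of the 9 mice in turn. Counts of calls were also made by FDR alone and by glmTreat. Figures were drawn with matplotlib 3.10.9. Log2 CPM for correlations used a prior count of 2. Counting intervals are exact binomial at the 95% level. Positions and lengths come from GENCODE vM21. Members and lists were chosen with earlier results of these data known. Genes named are the members, *Atg7*, *Sqstm1*, *Slc3a2*, *Nfe2l2*, *Keap1* and *Chac1*, up to 2 called rises and 2 called falls of each pathway list in each comparison with cont., and the 3 genes most like *Gclc*, *Gclm* and *Slc7a11*. Simulated counts of 13922 genes used gene means over all 9 mice, 1 dispersion of 0.08 for every gene and changes in *Atg7*-KO mice only. Against cont. mice, 93% of 100 genes changed 4-fold and 16% of 100 changed 2-fold were called. There were 4 calls among 13722 unchanged genes. In the data 43.7% of tested genes were called in that comparison, so these recovery rates need not hold there.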

Additional observations from a re-analysis of the deposited data

How the results depend on the processing

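The 6 genes called higher in *Atg7*-KO mice, and lower again with the p62 exchange, kept both calls under all 17 alternatives (16 for *Slc7a11* and *Ggt1*, which could not be tested with at least 10 counts in every mouse). With glmTreat, which is not among the 17, 6 were still called higher, but 5 were called lower with the p62 exchange. With upper-quartile scaling, the typical tested gene had a log2 fold change (median) of 0.082 in *Atg7*-KO against cont. and of -0.13 in *Atg7*-KO;TA against *Atg7*-KO mice. The share of calls that were higher was then 56.6% rather than 49.4%, and 41.2% rather than 48.5%. The 1 member lower in *Atg7*-KO mice became 0 with upper-quartile scaling, without a filter, with at least 10 counts and with glmTreat, and 0 to 1 with a mouse left out. The 13 other pathway genes higher in *Atg7*-KO mice became 8 with glmTreat and 8 to 12 with a mouse left out. In *Atg7*-KO;TA against cont. mice, the 0 members called higher became 1 with DESeq2, 1 with at least 10 counts, 2 without the mice numbered 1 and 0 to 2 with a mouse left out. The 4 other pathway genes higher there became 2 with a replicate block on the mouse number, 1 with glmTreat and 1 to 7 with a mouse left out. The 4 lower became 7 with DESeq2, 1 with the replicate block, 1 with glmTreat, 7 without the mice numbered 1 and 1 to 9 with a mouse left out. No source ties same-numbered mice to a shared litter, batch or day, although those numbered 1 share the low *Xist* counts of males. The block on the mouse number and the removal of the mice numbered 1 therefore cannot be told apart from an adjustment for sex. Of 9 same-numbered pairs, 6 had deviations that correlated over 0.1, in a range from -0.202 to 0.321. The mean was 0.146, against -0.0705 for the 18 pairs with unlike numbers. The deviations were taken from the mean of each genotype and cancel within it. A positive mean for same-numbered pairs therefore brings a negative one for the others by construction, and the 2 means are not independent. In both other genotypes, 5 of 9 mice correlated best with their own number. The block changed no member's call. Signs turned in *Atg7*-KO;TA against cont. mice for *Gclc* (-0.065 with DESeq2 size factors and with DESeq2, -0.032 with upper-quartile scaling, -0.00599 without a filter, -0.31 to 0.37 with a mouse left out), *Gclm* (0.015 with the block, 0.38 without the mice numbered 1, -0.26 to 0.38 with a mouse left out), *Ggt1* (-0.50 without the mice numbered 1), *Chac1* (-0.00896 with the block, -0.74 to 0.61 with a mouse left out) and the log2 ratio of *Gclc* to *Gclm* (-0.30 to 0.18 with a mouse left out). They also turned for *Ggt5* in *Atg7*-KO;TA against *Atg7*-KO mice (-0.12 to 0.40 with a mouse left out) and for *Keap1* in *Atg7*-KO against cont. mice (0.082 with upper-quartile scaling, 0.049 with at least 10 counts). None of these was called. The place of members in the order by RPKM was kept by 4 of 8 in *Atg7*-KO mice with coding lengths. In *Atg7*-KO;TA mice it was kept by 5 with the longest transcript, 2 with coding lengths and 4 to 8 with a mouse left out. The causes were not tested. Counts of 16 or fewer for *Slc7a11* and *Ggt1* outside *Atg7*-KO mice limit what could be seen there.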
